A study of Rattus norvegicus with 18 samples.

Results

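The livers of 6 unexposed rat pups were described, out of 18 pups measured in the series. They are all the samples whose titles name the control group (G1), with no choice made on their values. The dams were timed-pregnant Wistar rats from a commercial breeder, and G1 dams received only vehicle, a mixture of ethanol, Cremophor EL and sterile water, by injection into a tail vein. Each of the 3 G1 dams was injected 6 times between gestational day 15 and postnatal day (PND) 20, the litters were weaned on PND 21, and 1 male and 1 female pup per litter were killed on PND 27. Pups 1 to 3 were male and pups 4 to 6 were female. RNA came from whole liver, so every value averages over all cells of the organ, and a lower value could mean fewer cells of a type or less RNA per cell, which cannot be told apart. The labels number the pups but do not name their litters, and which 2 pups were littermates is not given. Wistar rats are an outbred stock, so pups can differ in genotype. The 12 pups of exposed dams were not used.

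The liver makes most proteins of blood plasma, clears ammonia through the urea cycle, makes bile acids from cholesterol, builds and burns fat, and oxidizes foreign and endogenous compounds through cytochromes P450. Around weaning the rat liver leaves behind the fetal program, of which alpha-fetoprotein is the best known marker, and changes from a milk diet rich in fat to solid food rich in carbohydrate. Hepatocytes form the bulk of the organ, with Kupffer cells (its resident macrophages), stellate cells, endothelium, bile duct cells and blood cells making up the rest.

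Each liver was hybridized to its own Illumina RatRef-12 array. The deposited values are logarithms to base 2, so a difference of 1 is a 2-fold difference of signal. The values of the 22523 probes started at 7.63, and no probe exceeded 15.7 in any pup. The median probe lay at 7.84, and 73.8% of the probes lay within 0.5 of it, so values near 8 are at the lower end of the scale. The 6 arrays had medians from 7.84 to 7.85, and any 2 arrays correlated across probes with r between 0.979 and 0.994 (genes are not independent replicates). Of the probes, 13793 carried a single gene symbol and stood for 13337 genes, each represented by its brightest probe over the 6 pups. Signal also depends on how well each probe binds its target, so an order of probes by signal is no order of transcript numbers. A gene was called bright at a mean log2 of 9 or more, which 3183 genes (23.9%) met. Just inside the limit stood Trim39 at 9.0007 and Gpatch11 at 9.0003, and just outside stood Ccdc51 at 8.9997 and Dus2 at 8.9991.

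The promoters of 4 genes are shown as examples picked by hand from the groups described here. The motifs of these 4 therefore do not stand for their groups. Alb, serum albumin, was the brightest gene. Fgb encodes the beta chain of fibrinogen and was among the 30 brightest. Afp, alpha-fetoprotein, was among the 25 most variable bright genes, and Bud31, a splicing factor, was among the 25 least variable. The windows run from 250 bases before to 50 bases after the RefSeq gene start (build GRCr8): chr14:17906930-17907229 for Alb, chr2:170700826-170701125 for Fgb, chr14:17875596-17875895 for Afp and chr12:14583958-14584257 for Bud31, all on the minus strand and written 5′ to 3′ along the gene. Capitals mark GTTAAT or its complement ATTAAC, letters found in the binding sequence of the hepatocyte factor HNF1, and TATAAA, the core of a TATA box, where it began 40 to 20 bases before the start.
Alb: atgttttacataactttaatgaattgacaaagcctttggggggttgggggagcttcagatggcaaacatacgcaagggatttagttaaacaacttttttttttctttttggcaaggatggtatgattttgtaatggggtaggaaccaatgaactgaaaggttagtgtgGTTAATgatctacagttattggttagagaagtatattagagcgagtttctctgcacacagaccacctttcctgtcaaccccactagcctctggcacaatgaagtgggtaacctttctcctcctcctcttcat
Fgb: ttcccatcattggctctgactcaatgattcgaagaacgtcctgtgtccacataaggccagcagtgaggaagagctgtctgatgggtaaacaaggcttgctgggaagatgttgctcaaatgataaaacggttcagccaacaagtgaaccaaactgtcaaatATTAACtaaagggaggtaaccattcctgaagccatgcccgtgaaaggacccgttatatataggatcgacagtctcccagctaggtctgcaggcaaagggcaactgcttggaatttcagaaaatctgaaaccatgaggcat
Afp: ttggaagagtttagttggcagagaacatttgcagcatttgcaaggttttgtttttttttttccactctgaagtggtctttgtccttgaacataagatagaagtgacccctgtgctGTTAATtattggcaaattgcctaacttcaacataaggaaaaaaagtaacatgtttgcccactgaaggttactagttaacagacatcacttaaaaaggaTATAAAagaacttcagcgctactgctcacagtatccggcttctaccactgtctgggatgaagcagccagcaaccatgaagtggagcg
Bud31: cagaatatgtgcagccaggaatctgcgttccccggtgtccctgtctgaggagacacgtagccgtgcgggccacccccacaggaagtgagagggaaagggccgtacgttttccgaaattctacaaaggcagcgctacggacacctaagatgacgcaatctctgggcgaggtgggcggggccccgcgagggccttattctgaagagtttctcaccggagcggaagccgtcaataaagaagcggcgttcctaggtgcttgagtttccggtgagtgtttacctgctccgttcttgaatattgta
Alb, Fgb and Afp each held GTTAAT once, and Afp also held TATAAA, beginning 37 bases before the start. Bud31 held neither, and its window had a GC content of 56.3% against 40.7% for Alb, 46.0% for Fgb and 40.3% for Afp. On either strand, GTTAAT was present in 5 of 29 windows of the 30 brightest genes (17.2%), in 3 of 20 of the most variable (15.0%) and in 0 of 22 of the least variable. The same letters were present in 7.37% of all 27457 rat promoter windows and in 5.39% of those of the bright genes. TATAAA was first counted anywhere in the window and on either strand. It was present in 7 of 29 windows of the brightest genes (24.1%), 5 of 20 of the most variable and 3 of 22 of the least variable (13.6%). The shares were 14.3% of all windows and 8.56% of those of bright genes. Beginning 40 to 20 bases before the start, on the gene's strand, it was present in 2 of 29, 2 of 20 and 0 of 22 windows. In that position it was held by 1.52% of all windows and 1.97% of those of bright genes. The 2 motifs were searched separately, also where they shared end letters. These shares describe letters in a window and do not show binding.

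The 30 brightest genes were mostly the secreted proteins for which liver is known. They had means from 15.55 (Alb) down to 15.28 (B2m), and 53 genes had a mean of 15 or more. Alb, the main carrier protein and osmotic component of plasma, had values of 15.44 and 15.44 in pups 1 and 2, 15.61 in pup 3, 15.51 in pup 5 and 15.57 in pup 6, with the highest value of the whole table in pup 4 (mean 15.55 ± 0.10, SD, n = 6). Males and females overlapped. The other plasma carriers among them were Ttr (transthyretin, which carries thyroid hormone and retinol-binding protein), Tf (transferrin, iron), Hpx (hemopexin, heme), Hp (haptoglobin, free hemoglobin) and Gc (vitamin D binding protein). Ttr lay between 15.39 and 15.44 in 5 pups and at 15.62 in pup 6. Protease inhibitors and related proteins were Ambp, Itih3, Serpina1 (alpha-1-antitrypsin), Ahsg (fetuin-A) and Kng2 (a kininogen). Vtn (vitronectin, of cell adhesion) and Rnase4 (a secreted ribonuclease) had means of 15.39 and 15.34. Of 37 measured members of the list of plasma carriers and protease inhibitors, 35 were bright and 13 were among the 30 brightest.

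Coagulation and lipoprotein genes followed. Fgg and Fgb, chains of fibrinogen, had medians of 15.44 and 15.43, and F2, prothrombin, had a median of 15.34. Fgb was between 15.41 and 15.45 in 5 pups and 15.23 in pup 5. F2 was between 15.33 and 15.39 in 5 pups and 15.20 in pup 1. Apoh, Apoc1 and Apoe, apolipoproteins or lipoprotein-associated proteins, had means of 15.43, 15.40 and 15.37. Pon1, an esterase carried on high-density lipoprotein, had a mean of 15.30 ± 0.06 (SD). Apob, the structural protein of very-low-density lipoprotein and a major liver product, was listed at a mean of only 7.74, near the lower end of the scale, and is the only one of 10 measured apolipoproteins that was not bright.

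Other enzymes among the 30 brightest were Cyp2c12, Cyp2e1, Mgst1 (a microsomal glutathione transferase), Ces1c (a carboxylesterase) and Scd. Cyp2e1, which oxidizes ethanol and small solvents in hepatocytes around the central vein, had 15.49, 15.30, 15.33, 15.54, 15.43 and 15.50. Cyp2c12, a steroid hydroxylase known as female-specific in the adult rat, had 15.51, 15.40 and 15.26 in the males and 15.55, 15.43 and 15.63 in the females. The sexes overlapped, and both were at the upper end of the scale. Whether the probe also binds transcripts of related Cyp2c genes was not tested. Scd, the desaturase that makes monounsaturated fatty acids, lay between 15.01 and 15.46 with a median of 15.34, the lowest value in pup 5. Dbi, the acyl-CoA binding protein, was between 15.30 and 15.45 in 5 pups and 15.02 in pup 5. Genes of all cells were few among the 30, namely Eef1a1 (a translation elongation factor), Tpt1 and B2m (the light chain of class I histocompatibility molecules). Hba-a1, an alpha chain of hemoglobin, the oxygen carrier of red cells, had a mean of 15.37.

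**Figure D1:**
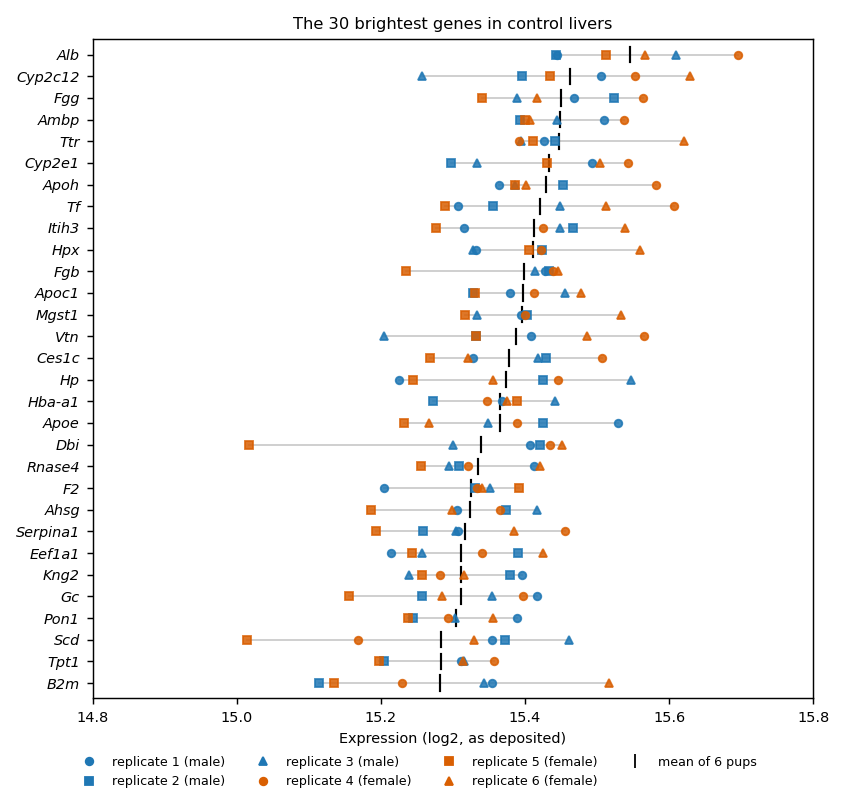
The 30 brightest genes, from top to bottom in order of mean, with log2 expression as deposited on the horizontal axis. Each point is 1 pup (male blue, female orange), the black tick is the mean of 6 pups and the grey line joins the lowest and highest pup; the means span only 0.26, and points of neighbouring genes overlap.

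The order of neighbouring genes within these 30 was not resolved. The first and the 30th mean differed by 0.26, the largest step between neighbours was 0.083, and in 29 of 29 neighbouring pairs the step was smaller than the pooled SD of the pair. Genes further apart were separated in part. The lowest pup of Alb (15.44) was above the highest of Pon1 (15.39) and Tpt1 (15.36), but below the highest of Scd (15.46) and B2m (15.52). The values also crowded at the upper end of the scale, and the spread between pups was smaller there. The median SD of a gene over the pups was 0.179 at means of 9 to 10, 0.220 at 11 to 12, 0.166 at 14 to 15 and 0.0870 at 15 and above. The part of the scale's upper end in this fall of SD was not tested. In addition, 3 probes without a gene symbol were brighter than the 30th gene.

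Beyond the plasma proteins, most measured genes of the metabolic lists were bright. All 7 measured urea cycle genes were bright, with Ass1 (argininosuccinate synthase) at 14.75 ± 0.17 (SD) and Otc (ornithine transcarbamylase) at 14.22 ± 0.14. All 32 measured genes of amino acid breakdown were bright, led by Cdo1, cysteine dioxygenase, at 14.91 ± 0.14 and Hpd, of tyrosine breakdown, at 14.64 ± 0.16. Of 21 bile acid genes 18 were bright, among them Slc27a5 (bile acyl-CoA synthetase, mean 14.68) and Slc10a1 (the sodium-dependent bile acid uptake carrier, mean 14.60). Of 60 oxidative phosphorylation genes 51 were bright. Of 48 cytochromes P450 of families 1 to 4 only 26 were bright, with Cyp2d2 (15.22), Cyp2c22 (15.13) and Cyp3a2 (15.08) after Cyp2c12 and Cyp2e1. Fatty acid synthesis and oxidation were both represented: Thrsp, a lipogenic regulator, had a mean of 15.10, and Fabp1, the liver fatty acid binding protein, had the same mean.

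The labelled tissue was checked by lists of cell type markers. Of the 5 measured hepatocyte markers 4 were bright, and Hnf4a, a defining transcription factor, had a mean of 8.06, near the lower end of the scale. Markers of pericentral (4 of 5 bright) and periportal hepatocytes (6 of 6) were both present. Kupffer cell markers were bright in 4 of 6, with C1qc, C1qb and C1qa, the chains of complement C1q, at means of 11.27, 11.19 and 10.88. Stellate cell markers were bright in 3 of 6, led by the collagen gene Col3a1 at 11.23, and endothelial markers in 1 of 2 (Lyve1, 10.02). Of 6 leukocyte, 4 neutrophil and 7 skeletal muscle markers, 0 were bright. Their list means over the pups ranged from 7.82 to 7.92, from 7.85 to 8.14 and from 7.82 to 7.86. Of 7 exocrine pancreas markers only Cela1, an elastase, was bright (10.98), while the digestive enzymes Cpa1 and Ctrb1 lay at 7.86 and 7.87. Hemoglobin was present in all 6 pups, with Hbb at 15.01 to 15.54.

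**Figure D2:**
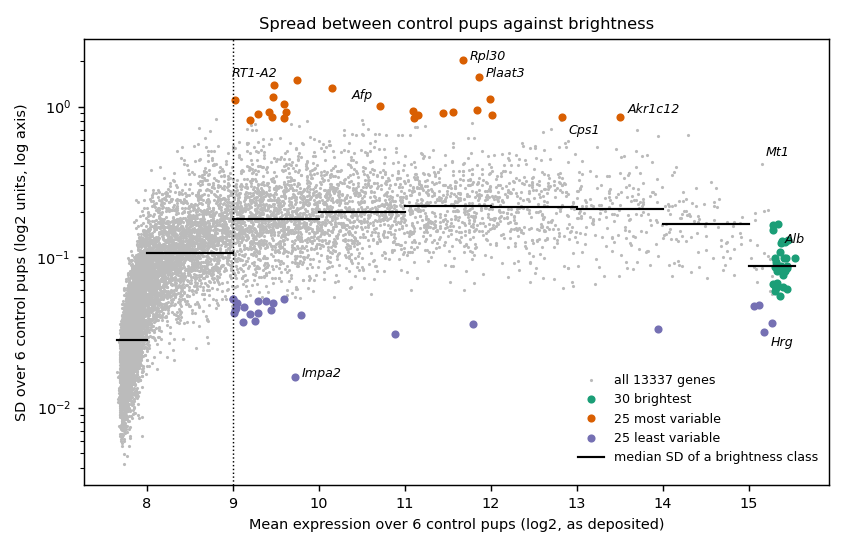
Standard deviation over the 6 control pups (log axis) against mean log2 expression for each gene (grey), with the 30 brightest, 25 most variable and 25 least variable bright genes in colour, the limit of 9 as a dotted line and the median SD of each class of brightness as black bars. The 25 most variable genes stand from means of 9.03 to 13.51, and none of them reaches 14.

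Most bright genes differed little between the 6 pups. The SD over the pups had a median of 0.193 among the 3183 bright genes, with a 5th percentile of 0.0834 and a 95th percentile of 0.462. The median range from the lowest to the highest pup was 0.518. A range of 1 or more, a 2-fold difference of signal, was found in 285 bright genes (8.95%), and a range of 2 or more in 28 (0.880%). The genes below are those with the largest and smallest SD, so these SDs describe the choice and are not tested.

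**Figure D3:**
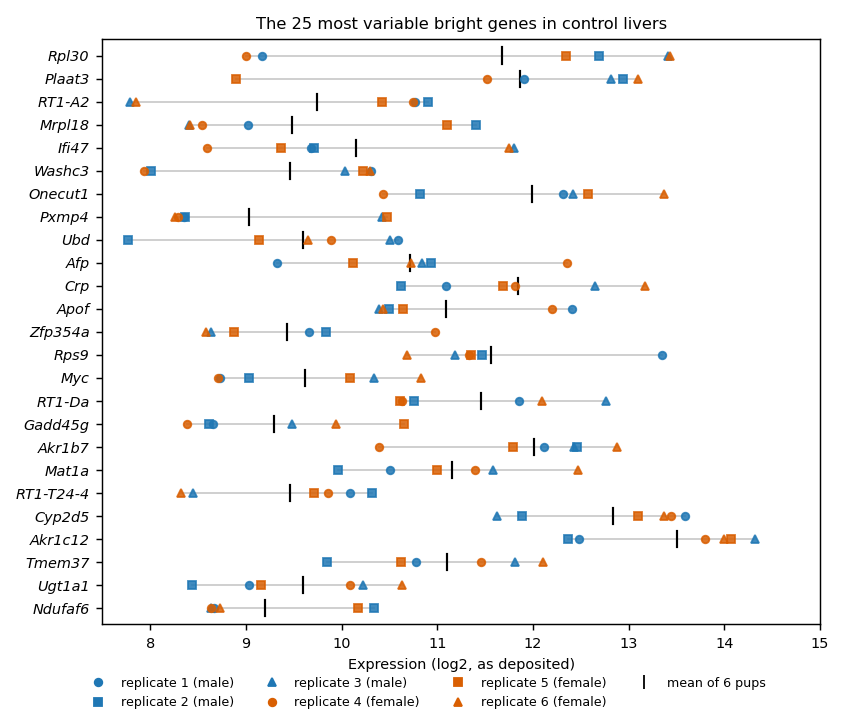
The 25 most variable bright genes in order of SD, with log2 expression as deposited on the horizontal axis. Each point is 1 pup (male blue, female orange), and the black tick is the mean; for Rpl30 and Apof pups 1 and 4 stand together, and for RT1-A2 pups 3 and 6.

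The largest SD was that of Rpl30, a protein of the large ribosomal subunit, with 9.17, 12.69, 13.41, 9.01, 12.34 and 13.44 in pups 1 to 6 (SD 2.05). Pups 1 and 4 were more than 3 log2 units below each of the other pups. Rps9, a protein of the small ribosomal subunit, behaved otherwise: pup 1 had 13.35, and the other pups had 10.68 to 11.47. A second probe of Rps9 gave 12.47 in pup 1 and 9.13 to 9.78 in the others, so both probes set the same pup apart. These genes stood out among the ribosomal proteins, whose 52 bright members of 65 had a median SD of 0.205, near the 0.193 of all bright genes. Rplp0, an often-used reference gene of that family, had 15.17 to 15.31.

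RT1-A2, a classical class I histocompatibility gene that presents peptides to T cells, had 10.76, 10.90, 7.79, 10.74, 10.42 and 7.85. Pups 3 and 6 were near the lower end of the scale and the other 4 pups were more than 2 log2 units higher. RT1-T24-4, another class I gene on the same chromosome, with 127 protein-coding genes between them in GRCr8, had 10.08, 10.32, 8.45, 9.86, 9.71 and 8.32, again with pups 3 and 6 lowest. RT1-Da, the alpha chain of a class II molecule of antigen-presenting cells, had 11.86, 10.76, 12.76, 10.63, 10.61 and 12.09, with the same pups highest. Ifi47, an interferon-induced GTPase, had 9.68, 9.71, 11.80, 8.59, 9.37 and 11.75, with pups 3 and 6 more than 2 log2 units above the others. Ubd, a ubiquitin-like modifier induced by interferon gamma, had 10.59, 7.77, 10.51, 9.89, 9.14 and 9.65, lowest in pup 2. The list of interferon-stimulated genes, which holds neither Ifi47 nor Ubd, had 0 members among the 25. Its 4 bright members of 24 had a median SD of 0.353. B2m, whose protein pairs with class I chains, had 15.35, 15.11, 15.34, 15.23, 15.13 and 15.52. The bright markers of Kupffer cells, which carry class II molecules, shared their highest pups with RT1-Da. In all 4 bright ones of the 6 measured, and in RT1-Da, the 3 highest pups were 1, 3 and 6, and C1qc (11.36, 11.23, 11.46, 11.16, 11.04 and 11.38) put the 6 pups in the same order as RT1-Da. The share of all bright genes with these 3 pups highest was not computed. Of the 4 markers, C1qa, C1qb and C1qc encode chains of the same complex, so they are not separate observations. C1qc spanned 0.42 and RT1-Da 2.15, the list means of the markers over the pups ranged from 9.90 to 10.37, and their part in the values of RT1-Da was not tested.

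Afp, the fetal counterpart of albumin, had 9.33, 10.94, 10.84, 12.36, 10.12 and 10.73 (SD 1.01), lowest in a male and highest in a female, with the other 4 pups between 10.12 and 10.94. Its neighbour in the gene family, Alb, had an SD of 0.10. Myc, a transcription factor of growing cells, had 8.73, 9.03, 10.34, 8.71, 10.09 and 10.83. Gadd45g, a stress and growth arrest gene, had 8.66, 8.62, 9.48, 8.38, 10.65 and 9.94. In both, pups 3, 5 and 6 were above the other pups. Onecut1 (HNF6), a transcription factor of hepatocytes and bile ducts, had 12.31, 10.82, 12.42, 10.43, 12.57 and 13.37, with pups 2 and 4 lowest. Afp was the only one of 8 measured fetal and growing liver genes among the 25. Of 25 cell division genes 5 were bright, with a median SD of 0.325, and 0 were among the 25 most variable. Of these, Pcna, the clamp of DNA replication, ranged from 10.77 to 11.65 and Cdk1, the kinase of mitosis, from 8.63 to 9.56.

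Secreted proteins and metabolic enzymes filled most of the rest. Crp, C-reactive protein, had 11.09, 10.62, 12.65, 11.81, 11.68 and 13.17 (SD 0.95), while the 16 bright acute phase genes had a median SD of 0.139. Apof, an apolipoprotein that inhibits cholesteryl ester transfer in humans, had 12.41, 10.50, 10.39, 12.20, 10.64 and 10.43, with pups 1 and 4 at least 1.56 above the others. Mat1a, which makes S-adenosylmethionine in liver, spanned 9.97 in pup 2 to 12.47 in pup 6, with a median of 11.19. Cyp2d5, a cytochrome P450, had 13.59, 11.89, 11.62, 13.45, 13.09 and 13.37, with pups 2 and 3 apart from the rest. Ugt1a1, the enzyme that conjugates bilirubin, had 9.03, 8.44, 10.23, 10.09, 9.15 and 10.63. The aldo-keto reductases Akr1b7 and Akr1c12 spanned 10.39 to 12.88 and 12.37 to 14.32. The second probe of Akr1c12 was dim, at 8.21 to 9.18, and did not repeat the pattern of the first, with pup 3 at 8.24. Plaat3, a phospholipase and acyltransferase, was between 11.52 and 13.10 in 5 pups and 8.89 in pup 5.

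Among organelle genes, Mrpl18, of the mitochondrial ribosome, had 9.02, 11.41, 8.41, 8.54, 11.10 and 8.41. Ndufaf6, an assembly factor of respiratory complex I, had 8.67, 10.33, 8.63, 8.64, 10.17 and 8.73. In both, pups 2 and 5 were above the other 4. Pxmp4, a peroxisomal membrane protein, had 8.36, 8.36, 10.42, 8.29, 10.48 and 8.26, with pups 3 and 5 high. Washc3, of the WASH complex on endosomes, had 10.30, 8.00, 10.04, 7.93, 10.22 and 10.29, with pups 2 and 4 near the lower end of the scale. The remaining genes, Zfp354a (a zinc finger protein) and Tmem37 (a membrane protein), had SDs of 0.92 and 0.84.

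Several of these genes took 2 levels with nothing between. After this was seen, a rule was set: a gap of at least 0.5 between sorted pups, at least 2 times the range on either side of it, with at least 2 pups on each side. It was met by 23 bright genes (0.723%). Of these, 13 were split so that pups 1 and 4 (5 genes), pups 2 and 5 (2 genes) or pups 3 and 6 (6 genes) stood apart from the other 4. Each of these pairs is a male and a female, as are 9 of the 15 possible pairs. The other 10 genes followed 7 other splits of the 25 that 6 pups allow with 2 or more on a side. Among these, pups 1 and 2, both male, stood apart in 3 genes and pups 3 and 5 in 2. The split of pups 2 and 5 was thus no more frequent than these. The rule and the 3 pairs were noticed in the same values, so the counts are a description with no test. With a gap of 0.4 the rule was met by 37 genes, 15 of them in these 3 splits, and with a gap of 1.5 times the ranges by 35 genes, 25 of them in these splits.

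**Figure D4:**
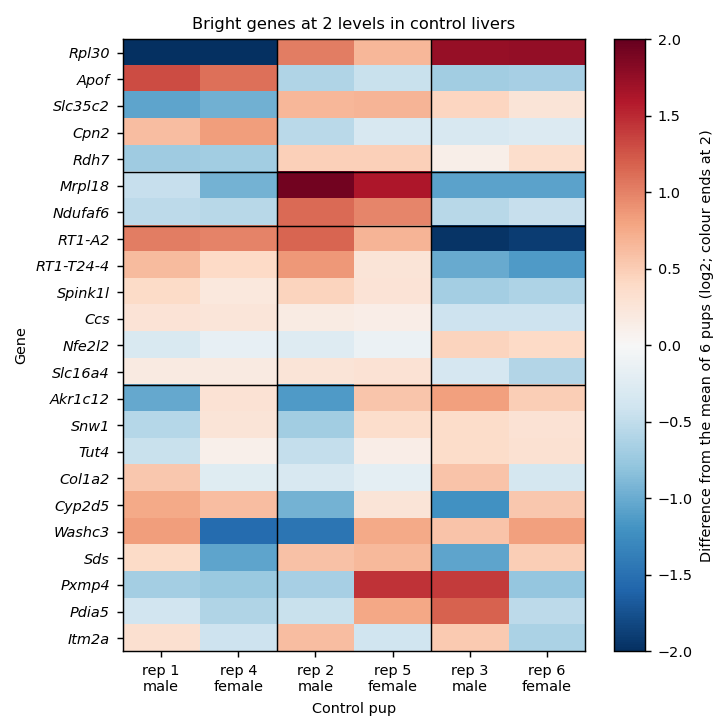
Difference of each pup from the mean of 6 pups (log2, red above and blue below, colour ending at 2) for the 23 bright genes at 2 levels; columns are pups, ordered so that pups 1 and 4, 2 and 5, and 3 and 6 are adjacent. The upper 13 rows change colour between whole pairs of columns, and the lower 10 rows do not follow these pairs.

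Pups 1 and 4 were apart in Rpl30, Slc35c2, Rdh7 (all low), Apof and Cpn2 (both high). Slc35c2, a transporter of the Golgi apparatus, had 8.80 and 8.90 in these pups and 10.12 to 10.54 in the others. Rdh7, a retinol dehydrogenase, had 9.34 and 9.35 against 10.16 to 10.52, and 12 protein-coding genes lie between it and Rpl30 in GRCr8. Genes of different splits also lay close, with 61 protein-coding genes between Cpn2 and Pdia5 and 168 between Slc35c2 and Pxmp4. Cpn2, the regulatory subunit of plasma carboxypeptidase N, had 9.79 and 10.01 against 8.63 to 8.90. Pups 2 and 5 were apart in Mrpl18 and Ndufaf6, given above. Pups 3 and 6 were apart in both class I genes, in Spink1l (a trypsin inhibitor), in Ccs (the copper chaperone of superoxide dismutase), in Nfe2l2 and in Slc16a4. Spink1l had 11.94 and 12.00 in these pups and 12.83 to 13.06 in the others. Nfe2l2, which encodes the antioxidant regulator Nrf2, was the only gene of the 6 that was higher there, with 11.35 and 11.31 against 10.59 to 10.79. Itm2a, a membrane protein, was the only gene of the 23 whose levels followed sex, with males at 9.32 to 9.62 and females at 8.37 to 8.61.

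Over all bright genes the pups were not equally far apart. Pups 2 and 6 differed by 1 or more in 140 bright genes, pups 1 and 4 as well as pups 3 and 6 in 21, and pups 2 and 5 in 51, more than pups 4 and 5 (31), 1 and 5 (33), 1 and 2 (39) or 3 and 5 (45). Across the bright genes, deviations from the mean of the 6 pups had r = 0.387 for pups 3 and 6, 0.004 for pups 1 and 4 and -0.096 for pups 2 and 5, as a description over genes that share the 6 arrays. Pup 2 was the highest of the 6 in 27.6% and the lowest in 24.4% of the bright genes, and pup 6 in 21.0% and 24.8%. Pup 4 was highest in 8.55% and lowest in 9.61%. Over the bright genes, the first principal component held 44.5% of the variance, with pups 2 (-12.8) and 1 (-7.19) at its low end and pups 3 (8.60) and 6 (13.7) at its high end. Both ends held males, and among the 25 most variable genes pup 6 was the highest in 9. Cps1, the first enzyme of the urea cycle, outside the 25, showed the same order of ends, with 11.95, 12.13, 13.38, 13.04, 12.36 and 14.06.

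**Figure D5:**
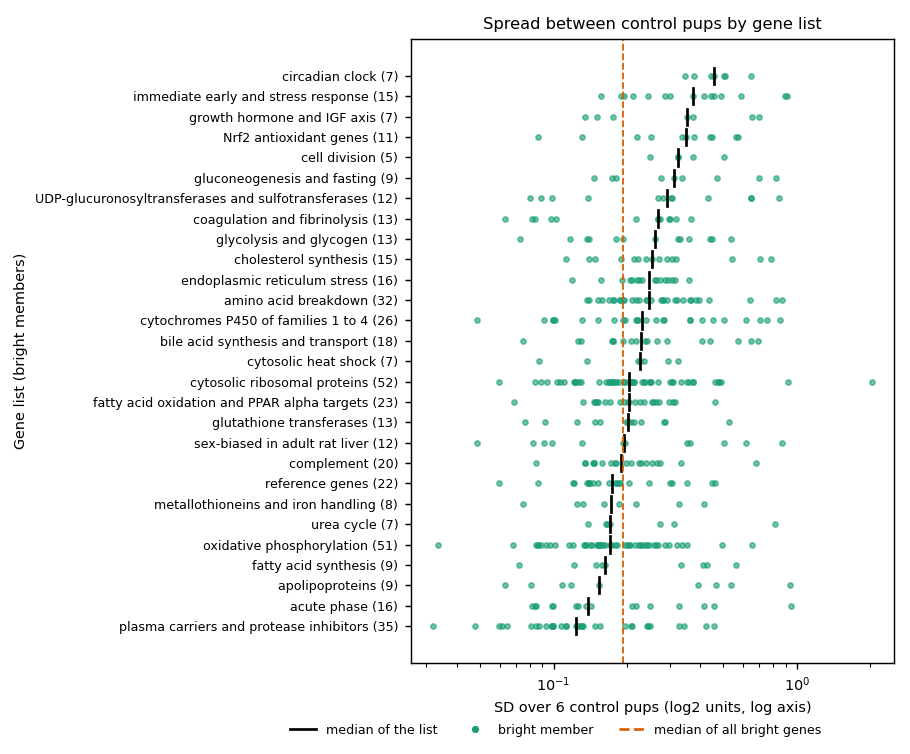
Standard deviation over the 6 control pups (log axis) of the bright members of each gene list with at least 5 of them, in order of the list's median (black bar); each green point is 1 gene and the dashed line is the median of all bright genes, 0.193. The plasma carriers stand lowest with a median of 0.124 and the circadian clock highest with 0.456.

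Gene lists differed in how much their bright members varied. Among lists with at least 5 bright members, the circadian clock had the highest median SD, 0.456 over its 7 bright members of 15 measured, all above the median of bright genes. The erythroid markers (3 bright) and the fetal and growing liver genes (2 bright) had higher medians, 0.626 and 0.543. Usp2, a deubiquitinase with a strong daily rhythm in liver, had 11.30, 10.71, 9.94, 11.62, 10.95 and 10.15. Per1, a clock repressor, had its lowest value, 8.84, in pup 3 and its highest, 10.08, in pup 4, with pup 6 next to the lowest, and Nr1d1 (Rev-erb alpha) had 9.65, 9.55, 9.03, 10.20, 10.23 and 9.15. In these genes and in Per2, 4 of the 7, pups 3 and 6 were the lowest of the 6. The share of all bright genes in which these pups were the 2 lowest was not computed. Over all bright genes the deviations of pups 3 and 6 correlated (r = 0.387), so shared ranks need not be particular to the clock. Bhlhe40, another clock repressor, had 10.33, 9.99, 10.75, 11.05, 9.88 and 10.39, with pups 2 and 5 lowest, and Nfil3 and Noct also broke the order. Dbp, a strongly rhythmic clock output gene, was dim at 7.97. No source used here gives the time of day at which the pups were killed.

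The list of immediate early and stress response genes had a median SD of 0.375 over 15 bright members. Dusp1, a phosphatase induced within minutes by many stimuli, had 11.28, 11.97, 12.62, 11.38, 11.77 and 11.57, highest in pup 3. Sgk1, a glucocorticoid-induced kinase, spanned 9.41 to 10.87. The 11 bright Nrf2 antioxidant genes had a median SD of 0.352: Gclc, the rate-limiting enzyme of glutathione synthesis, had 10.96, 11.39, 11.91, 11.46, 11.10 and 12.51, and Hmox1, heme oxygenase, had 9.34, 9.05, 9.84, 9.47, 9.17 and 10.24. In these 2 of the 11, pups 6 and 3 were the highest, and the other 9 had other orders. The share of all bright genes with these pups highest was not computed. Me1, malic enzyme, had 9.45, 10.26, 10.13, 9.85, 8.88 and 10.33, lowest in pup 5, and Aox1, an aldehyde oxidase, had 14.23, 13.83, 14.15, 14.18, 14.29 and 13.77, lowest in pup 6. The 9 bright genes of gluconeogenesis and fasting had a median of 0.314. Among them Igfbp1, an insulin-repressed secreted protein, had 9.48, 11.42, 9.86, 10.59, 10.54 and 9.85, and Sds, serine dehydratase, had 9.46 and 9.45 in pups 3 and 4 and 10.89 to 11.15 in the others. Of the bile acid genes Cyp7a1, the rate-limiting enzyme of their synthesis, had 14.17, 14.41, 12.67, 14.21, 13.09 and 13.70. Cyp1a1, a target of the aryl hydrocarbon receptor, was highest in pup 2 (10.64) and between 8.54 and 9.37 in the others.

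At the other end, the 35 bright plasma carriers and protease inhibitors had a median SD of 0.124 and the 16 bright acute phase genes 0.139. The 9 bright apolipoproteins had 0.153, the 9 bright fatty acid synthesis genes 0.162 and the 51 bright oxidative phosphorylation genes 0.170. The first of these lists is also among the brightest, where SDs were smaller. It still held varying members: A2m, alpha-2-macroglobulin, spanned 10.88 to 12.13 and Mug2, a murinoglobulin, 12.74 to 13.74. The apolipoprotein Apoa2 spanned 12.56 to 13.94. The 22 bright reference genes, those often used to scale other measurements, had a median SD of 0.175. Among them Gapdh had 12.84 to 13.26, Actb 13.98 to 14.56, Ppia 14.73 to 15.15 and Hprt1 12.00 to 12.79. Other Actb probes, with means of 12.37 and 12.13, had SDs of 0.371 and 0.460, against 0.204 for the brightest Actb probe. The largest SDs of the list were those of Rplp1 (0.460) and Ldha (0.448). Tbp, which had 8.42 to 8.70, and Hsp90ab1, with a mean of 7.98, were dim.

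The SDs of the 25 least variable bright genes ran from 0.0161 to 0.0526. Impa2, an inositol monophosphatase, had 9.72, 9.73, 9.71, 9.72, 9.70 and 9.75. Rmdn3, a tether between endoplasmic reticulum and mitochondria, had 10.84 to 10.94, Atp5me, a subunit of ATP synthase, 13.92 to 14.01, and Bud31 11.75 to 11.84. All 6 pups of each of these genes lay within 0.10 of each other. The secreted proteins Hrg (histidine-rich glycoprotein), Serpina3c and Serpinc1 (antithrombin) and the cytochrome Cyp2c22 had means between 15.06 and 15.28, in the class of brightness with the smallest SDs. Hrg had 15.18, 15.17, 15.13, 15.20, 15.22 and 15.17.

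Most of the rest of the 25 were close to the limit, with 18 genes at means of 9 to 10. They included Mtif2 (mitochondrial translation initiation), Lrp6 (a Wnt co-receptor), Vezt (an adherens junction protein), Dnajc14 (a co-chaperone), Orc5 (the origin recognition complex), Adprh (an ADP-ribosylarginine hydrolase) and Chkb (choline kinase). Lrp6 lay between 9.16 and 9.27 and Mtif2 between 9.05 and 9.15. Genes with means of 8 to 9, just below the limit, had a median SD of 0.106 against 0.179 in the class above it, and the SD fell together with the signal there. Of the 25, 9 were in at least 5 of the 6 lists made with each pup left out in turn, namely Impa2, Rmdn3, Hrg, Atp5me, Bud31, Serpina3c, Mtif2, Gpalpp1 and Armc10.

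The only contrast that the labels make inside G1 is that of females against males. With limma on all 22523 probes, 0 probes (0%) differed at an adjusted p of 0.05. An unadjusted limma p under 0.05 was found in 834 probes, a smaller share than the 0.05 that random labels of independent pups would give. Of these, 368 were higher in females and 466 in males. Littermates of opposite sex could not be paired in this test, so it does not show that the sexes were alike. The smallest adjusted p was 0.117, for Lox (probe ILMN_1376823), lysyl oxidase, which crosslinks collagen. It had 9.34, 9.30 and 9.34 in males and 8.87, 8.86 and 8.80 in females, a female minus male difference of -0.48 ± 0.03 (SE). Itm2a, given above, had a difference of -0.97 ± 0.10 (SE, limma adjusted p = 0.881), and Fkbp10, a chaperone of collagen, -0.25 ± 0.03. Col3a1, a stellate cell marker, lay at 11.22 to 11.81 in males and 10.88 to 11.13 in females, and the list means of stellate markers over the 6 pups ranged from 9.24 to 9.97. Col1a2, another collagen gene, had 13.61, 12.74 and 13.63 in males and 12.81, 12.86 and 12.72 in females, so there the sexes overlapped. The part of stellate cells in the values of Lox and Fkbp10 was not tested. Nars2, the mitochondrial asparaginyl-tRNA synthetase, was 0.18 ± 0.02 (SE) higher in females. Pbdc1, an X-linked gene, had 9.92, 9.88 and 9.91 in males and 10.16, 10.20 and 10.46 in females (difference 0.37 ± 0.08, SE, limma adjusted p = 0.964).

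Genes known for sex-biased expression in adult rat liver had no called difference, as was true of all probes (0%). Of 22 measured, 12 were bright, with a median SD of 0.195. Cyp2c13, male-specific in adults, had 9.09, 8.84 and 8.88 in males and 10.06, 9.45 and 8.71 in females. Cyp3a2, also male-biased in adults, had 14.91 to 15.08 in males and 14.94 to 15.46 in females. Of 6 measured major urinary proteins and lipocalins, 0 were bright. In 246 bright genes (7.73%) the sexes did not overlap, and this held for 0 of the 25 most variable genes. For a single gene, an exact permutation of 3 males against 3 females cannot give a two-sided p below 0.10. Complete separation gives that value, so random labels would separate the sexes in a share of about 0.10 of genes. The 7.73% found here is not above that share. The difference between the sex means held a median of 12.5% of the squared deviations over bright genes and 9.39% over the 25 most variable ones. Any split of the 6 pups into 3 and 3 takes some share, and that of random splits was not computed.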

How the data were processed

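Liver RNA was labelled with biotin and hybridized to Illumina RatRef-12 arrays. The authors preprocessed the intensities with lumi and deposited log2 values in 1 table of 22523 probes. Background correction, transformation, normalization method and lumi version: not given in the sources used here. A detection p does not accompany the values. The 6 G1 columns were used without further filter, and 12 columns of exposed pups were left out. Probes were named through the platform annotation, with symbols updated by gene ID to RefSeq GRCr8 (13752 of 13793 matched). A gene's SD is the sample SD over 6 pups with a single array each, so differences between pups and between arrays cannot be told apart in it. Sexes were compared with limma 3.58.1 (lmFit, eBayes, two-sided, Benjamini-Hochberg over all probes) in R 4.3.3, tested on simulated data. The labels call each sample an individual pup, but 6 pups came from 3 litters, so p-values and SDs treat littermates as independent.

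Named genes were the 30 brightest, the 25 bright genes of largest and of smallest SD, up to 3 members of highest mean and 3 bright members of largest SD from each of 44 gene lists, reference genes, the genes beside the limit, the 5 named probes of smallest p between the sexes and Pbdc1. Genes at 2 levels, Hnf4a, Apob, Dbp, Nfil3 and Noct were added after their values were seen. Members and lists were chosen with earlier results of these data known. Alternatives were quantile normalization, median centring, other limits, probe choices and measures of spread, limma settings and each pup left out.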

Additional observations from a re-analysis of the deposited data

Results flagged for a closer look

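Of 285 named genes, 19 had a pup whose distance to the nearest other pup exceeded Dixon's limit for 6 values, which chance passes in about 1 in 20 groups. Of the 255 bright ones 15 (5.88%) did so. The values stand beside the median of the other 5 pups.

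Pup 5 was low in 4 genes. Plaat3 was 8.89 against 12.81, Dbi 15.02 against 15.42, Fgb 15.23 against 15.43 and Thrsp 14.87 against 15.14. Pup 2 was low in 4 bright genes: Mug2 at 12.74 against 13.39, Dhcr7, of cholesterol synthesis, at 12.63 against 13.15, Gpalpp1 at 9.19 against 9.27 and Dnajc14 at 8.94 against 9.04. Pup 2 was high in 3 dim genes, S100a8 (a neutrophil marker, 9.22 against 8.34), Tbp (8.70 against 8.44) and Hsp90ab1 (8.21 against 7.95). Of the other neutrophil markers, S100a9 was 7.75 and Mpo 7.86 in that pup, near the lower end of the scale, where genes cannot be told from background. The part of neutrophils in the S100a8 value was not tested.

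Pup 6 was low in Atp5f1b, a subunit of ATP synthase (14.96 against 15.31), in Slc27a5 (14.43 against 14.71), in Mtif2 (9.05 against 9.13) and in the dim gene Dus2 (8.71 against 9.03), and high in Ttr (15.62 against 15.41). Pup 1 was high in Rps9 (13.35 against 11.33) and low in F2 (15.20 against 15.34). Pup 4 was high in Cyp3a2 (15.46 against 15.02). Pup 3 was set apart in 0 genes.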

How the results depend on the processing

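No probe differed between the sexes under 6 other settings. With each pup left out in turn the count was 0 to 1, the 1 being a probe without a gene symbol, higher in males, called without pup 2. No paired analysis was possible because the sexes share no replicate number. The number of bright genes ranged from 2433 with a limit of 9.5 to 4191 with 8.5. Of the 30 brightest genes 28 to 30 were kept under every alternative run. Of the 25 most variable 13 were kept with the median absolute deviation and 18 to 25 otherwise, pups left out included. The least variable list was less stable: 8 of 25 were kept with the median absolute deviation, 15 with the SD within the sexes, 13 with a limit of 8.5, 10 with 9.5 and 11 to 17 with a pup left out. The cause was not tested. The median SD of bright genes was 0.170 without pup 2 and 0.203 without pup 4, the ends of its range. Of 202 recomputed list medians, 12 moved by more than the jackknife standard error over the pups, and that of the growth hormone and IGF genes fell from 0.355 to 0.207 without pup 4. The 23 genes at 2 levels became 37 with a gap of 0.4, 35 with 1.5 times the ranges, 19 with a gap of 0.7, 27 with quantile normalization and 24 with median centring, and the 13 in the 3 splits became 15, 25, 10, 16 and 14. Without detection p-values, genes near 8 cannot be told from background.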
